A study of Homo sapiens with 4 samples.

Results

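The genes described here encode 54 enzymes and enzyme subunits that modify tRNA outside the NSUN family. They were chosen by gene symbol from a list of tRNA modification enzymes, and all 54 were found among the 62893 genes of the deposited count table and passed the filter on low counts, which kept 16889 genes. Their expression was measured by RNA-seq of poly(A) RNA in T24, a single established cell line derived from human bladder cancer. One group of libraries came from cells treated with siRNA against NSUN2 (siNSUN2, 2 libraries) and the other from cells treated with control siRNA (siControl, 2 libraries). Genotype and culture were otherwise not distinguished in the labels, and the number and sequence of the siRNAs are not given in the labels. No label says that libraries of a group came from separate cultures, so the p-values measure only how much these libraries vary, and that variation may be technical. In such bulk RNA, less transcript per cell and fewer cells that express a gene cannot be told apart.

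Transfer RNAs carry more chemical modifications than other RNAs. Methyl groups, pseudouridine and dihydrouridine in the body of the molecule help it fold and protect it from decay, whereas modifications of the wobble base and of the purine beside the anticodon tune decoding and keep the reading frame. NSUN2, the siRNA target, is itself a tRNA methyltransferase that makes 5-methylcytosine, so it shares its class of substrate with these enzymes. Several of them need a partner subunit to be active, and a smaller set works in mitochondria on tRNAs made from mitochondrial DNA. The comparison bears on whether the transcripts of the other tRNA-modifying enzymes change in level along with NSUN2.

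The libraries held 33633249 to 215936965 counts, and the 54 genes had between 73 counts (ADAT3) and 27020 counts (ELP2) in a library. Levels are in CPM, counts per 1000000 counts of the library, with library totals scaled by TMM normalization factors. NSUN2 (ENSG00000037474) stood at 29.9 ± 0.366 CPM in siNSUN2 cells and 283 ± 2.53 CPM in siControl cells (mean ± SD, n = 2 each). Its log2 fold change was −3.24, SE 0.043, adjusted p = 1.64e-09. Of 10 epithelial and urothelial markers, the simple keratin genes KRT7, KRT8 and KRT18 made up nearly all of a summed level of 1201 and 1111 CPM in the siNSUN2 libraries, against 1186 and 1258 CPM in the siControl libraries. KRT7 rose (0.29, adjusted p = 2.18e-04), whereas KRT8 (−0.087) and KRT18 (−0.14) did not pass. Once GC and length trends were removed, KRT7, KRT8 and KRT18 were all called as falls, at −0.23, −0.17 and −0.37. UPK1B, a uroplakin, had 1.62 and 2.07 CPM after NSUN2 siRNA against 3.86 and 4.18 CPM after control siRNA (−1.13, SE 0.19, adjusted p = 7.67e-04), and GATA3 had 0.109 and 0.263 CPM after NSUN2 siRNA against 0.494 and 0.381 CPM after control siRNA (−1.34, SE 0.58, adjusted p = 0.0827). UPK3A was at 0 in every library, and KRT5, EPCAM, CDH1 and UPK2 were at 0.212 CPM or less. Markers of other cells were low but not equal between libraries. The sum of 3 endothelial markers was 2.37 and 10.6 CPM in the siNSUN2 libraries, against 0.635 and 0.395 CPM in the siControl libraries, with PECAM1 at 0 throughout. VWF alone had 1.80 and 8.73 CPM after NSUN2 siRNA against 0.165 and 0.113 CPM after control siRNA (5.32, SE 1.35, adjusted p = 0.0814). For 4 blood markers the sums were 0.0762 and 3.36 CPM with NSUN2 siRNA, against 0 and 0.296 CPM with control siRNA. Of these, HBB had 0 and 2.66 CPM with NSUN2 siRNA, against 0 and 0.188 CPM with control siRNA. The 4 fibroblast markers summed to 3.11 and 3.53 CPM in the siNSUN2 libraries, against 0.988 and 2.06 CPM in the siControl libraries, with no marker at 0 throughout. COL1A1 rose (1.28, SE 0.31, adjusted p = 0.0118), but was not called once GC and length trends were removed (0.78, adjusted p = 0.0831). COL1A2 went the other way without passing (−1.39, adjusted p = 0.512), and DCN and LUM were at 0.118 CPM or less. The part of these markers in the results that follow was not tested.

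Most transcripts of tRNA modification enzymes were lower after NSUN2 knockdown. Of the 54 genes, 33 fell, 10 rose and 11 did not pass the test (adjusted p under 0.05 over all genes tested). Calls were common over the whole transcriptome, with 52.6% of all genes called, 27.1% as risen and 25.5% as fallen. Against this background the 54 genes were called as risen in 18.5% and as fallen in 61.1%. Calls were more frequent at the levels where these genes lie. Of the 9101 genes within their range of average level, the 54 included, 68.1% were called, 35.5% as risen and 32.6% as fallen. The changes were small: the median log2 fold change (siNSUN2 over siControl) was −0.29, against 0.026 over all genes tested, 11 of the 54 genes moved by 0.5 or more, and the extremes were −0.75 (TRMT2B) and 1.08 (CTU1). Against a fold of 1.2, the test called 5 of the 54 as risen and 21 as fallen, beside 17.2% and 15.0% of all genes. Summed over the 54 genes, the level was 1868 and 1830 CPM in the siNSUN2 libraries, against 2122 and 2108 CPM in the siControl libraries. The highest siNSUN2 library lay below the lowest siControl library in this sum. Gene by gene, the groups did not overlap for 50 of the 54. The same held for 12592 of the 16889 genes tested and for 7716 of the 9101 in the range of level, so such separation was common.

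**Figure D1:**
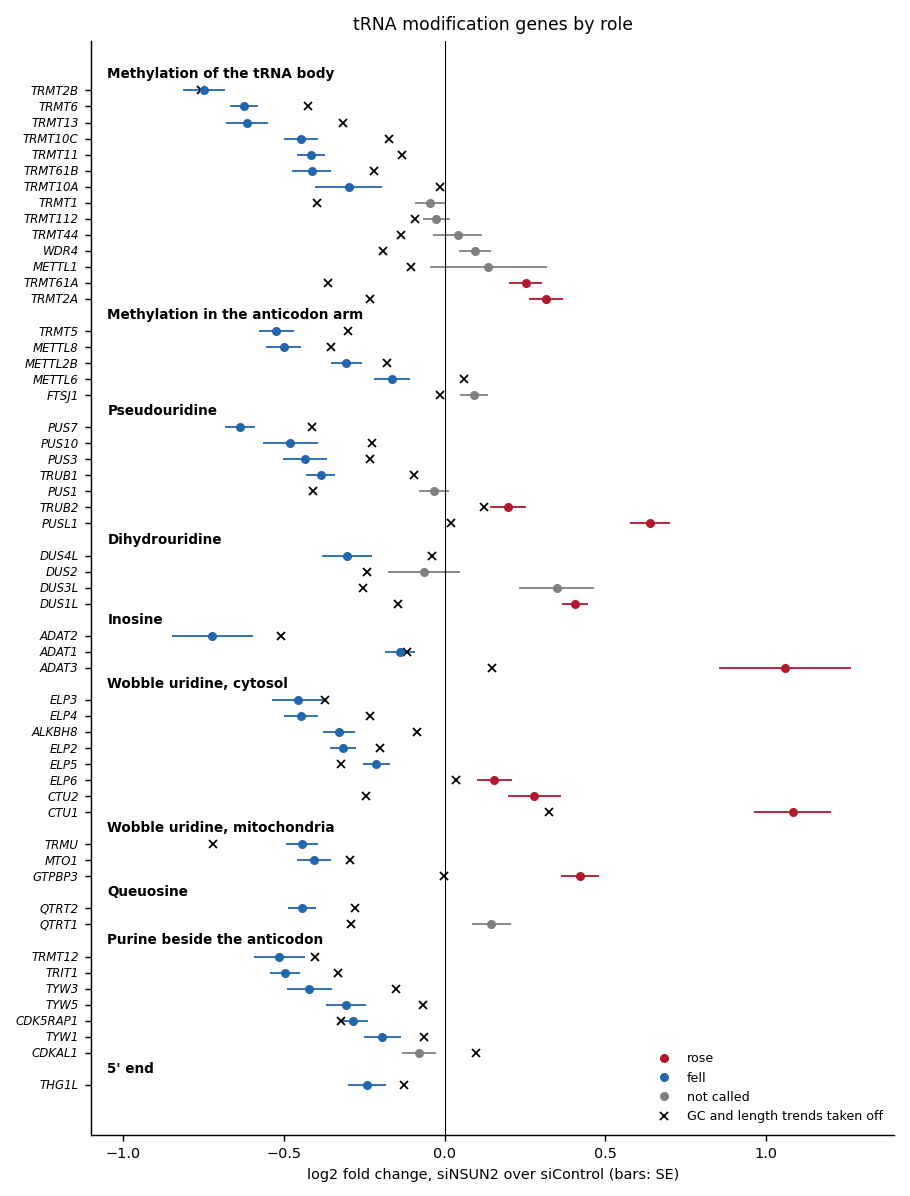
Log2 fold change of each of the 54 genes (siNSUN2 over siControl, 2 libraries each) with its SE as a bar, grouped by role; red, blue and grey points are genes that rose, fell or were not called, and crosses give the value with GC content and length trends taken off. Of the points, 33 are falls and 10 are rises, and the crosses of 5 of the 10 genes that rose lie left of 0.

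The direction of change went with the GC content of the transcript, in these genes as in the rest of the transcriptome. When all tested genes were split evenly into 3 by GC content, 42.8% of those with the lowest GC content fell and 13.2% rose, and of the 23 tRNA modification genes there, 22 fell and 0 rose. Of those in the middle range of GC content, 9 of 10 fell and 1 rose, beside 25.6% falls and 20.2% rises among all genes. Of those with the highest GC content, 2 of 21 fell and 9 rose, beside 9.17% falls and 49.6% rises. Trends on GC content and transcript length were therefore taken off each library and the test was repeated. It then called 1 rise (CTU1) and 29 falls among the 54 genes, where 24.1% of all genes rose and 23.2% fell. The median of the 54 genes was −0.21 with this correction, against 0.025 over all genes. Of the 43 called genes, 23 kept their direction and call, 14 were no longer called and 6 changed sign. For that reason the corrected log2 fold change is given beside the genes it moved most.

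**Figure D2:**
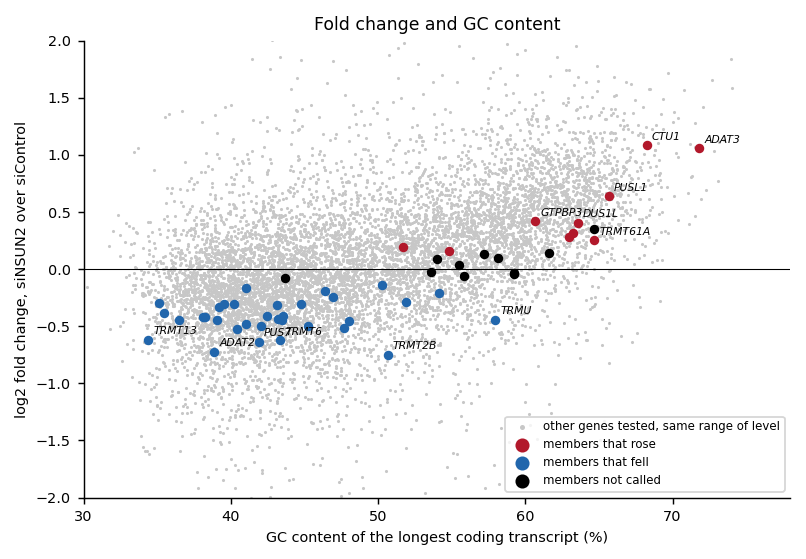
Log2 fold change (siNSUN2 over siControl) against the GC content of the longest coding transcript, for the 54 genes (coloured by call) and 8882 other genes in the same range of average level (grey, 46 of them outside the plotted window). Falls of the 54 genes lie mostly at low GC content and 9 of the 10 rises at high GC content.

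The largest group methylates the body of the tRNA. Of its 14 genes, 7 fell, 2 rose and 5 did not pass. Beside this count, and each later count by role, stand 25.5% falls and 27.1% rises among all genes tested. The largest fall of all 54 genes was that of TRMT2B (ENSG00000188917), which makes 5-methyluridine in mitochondrial RNAs. It stood at 13.9 and 14.9 CPM in the siNSUN2 libraries, against 24.3 and 24.2 CPM in the siControl libraries (log2 fold change −0.75, SE 0.064, adjusted p = 1.00e-05). Its value was −0.76 with GC and length taken off, so it was as large with the correction. The cytosolic counterpart TRMT2A went the other way, at 33.6 and 32.8 CPM after NSUN2 siRNA against 26.7 and 26.7 CPM after control siRNA (0.31, SE 0.052, adjusted p = 7.36e-04), but it turned to −0.23 with the correction, and it shares 9.9% of its exon bases with RANBP1 on the opposite strand.

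TRMT6 (ENSG00000089195), the RNA-binding subunit of the enzyme that makes 1-methyladenosine in the T loop, had 51.4 and 53.6 CPM in the siNSUN2 libraries, against 80.3 and 81.4 CPM in the siControl libraries (log2 fold change −0.62, SE 0.043, adjusted p = 2.64e-06; corrected −0.43). Its catalytic partner TRMT61A had 35.4 and 36.6 CPM after NSUN2 siRNA against 30.7 and 29.8 CPM after control siRNA (0.25, SE 0.052, adjusted p = 0.00265) and a corrected value of −0.36. The groups did not overlap for either subunit. TRMT61B, which makes the same modification in mitochondria, had 19.9 and 19.2 CPM after NSUN2 siRNA against 26.6 and 25.5 CPM after control siRNA (−0.41, SE 0.060, adjusted p = 3.12e-04; corrected −0.22). TRMT13 (ENSG00000122435), which adds a ribose methyl group in the acceptor stem, was at 23.4 and 26.2 CPM in the siNSUN2 libraries, against 38.6 and 37.2 CPM in the siControl libraries (log2 fold change −0.62, SE 0.065, adjusted p = 4.00e-05; corrected −0.32). Both siNSUN2 libraries lay below both siControl libraries for TRMT61B and TRMT13. Their exons share 22.9% (with SPDYA) and 13.1% (with LRRC39) of their bases with an opposite-strand gene, and neither of those genes passed the test.

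TRMT10C belongs to the mitochondrial RNase P, which also cuts precursors at the start of the tRNA, and methylates purines of mitochondrial tRNAs. Its level was 39.1 and 35.8 CPM in the siNSUN2 libraries, against 51.1 and 51.3 CPM in the siControl libraries (log2 fold change −0.45, SE 0.053, adjusted p = 8.54e-05; corrected −0.17). TRMT10A, its cytosolic relative, had 8.31 and 7.21 CPM after NSUN2 siRNA against 9.41 and 9.73 CPM after control siRNA (−0.30, SE 0.10, adjusted p = 0.0366), and the call was lost without siNSUN2 replicate 2 (−0.19, adjusted p = 0.203) and without siControl replicate 2 (−0.29, adjusted p = 0.125), and it was −0.014 with the correction. TRMT11, which methylates a guanosine of the D arm, had 43.7 and 43.5 CPM after NSUN2 siRNA against 59.4 and 56.9 CPM after control siRNA (−0.42, SE 0.045, adjusted p = 4.48e-05; corrected −0.13). TRMT112, the small protein that activates TRMT11 and ALKBH8, was not called, at 78.8 and 76.5 CPM in the siNSUN2 libraries, against 79.1 and 79.0 CPM in the siControl libraries (log2 fold change −0.026, SE 0.041, adjusted p = 0.652), and it shares 17.5% of its exon bases with ESRRA on the opposite strand, which rose by 0.61. The other genes that did not pass were TRMT1 (−0.046), TRMT44 (0.040) and both subunits of the enzyme that makes 7-methylguanosine, METTL1 (0.14, SE 0.18) and WDR4 (0.094, SE 0.050). METTL1 spread widely, at 17.3 and 12.4 CPM after NSUN2 siRNA against 13.8 and 13.4 CPM after control siRNA, and without siNSUN2 replicate 2 it was called at 0.36 (adjusted p = 0.0119), whereas without siNSUN2 replicate 1 it was at −0.14 (adjusted p = 0.235). It shares 19.3% of its exon bases with EEF1AKMT3 on the opposite strand, which did not pass. TRMT1, which makes dimethylguanosine, and WDR4 were called as falls with the correction (−0.40 and −0.19).

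In the anticodon arm, 4 of 5 methyltransferase genes fell and 0 rose. TRMT5 (ENSG00000126814) methylates the guanosine beside the anticodon, which prevents frameshifts, and had 31.4 and 28.8 CPM in the siNSUN2 libraries, against 43.4 and 43.4 CPM in the siControl libraries (log2 fold change −0.52, SE 0.055, adjusted p = 3.86e-05). METTL8 (ENSG00000123600), which makes 3-methylcytidine in mitochondrial tRNAs, had 24.7 and 23.9 CPM in the siNSUN2 libraries, against 34.1 and 34.7 CPM in the siControl libraries (log2 fold change −0.50, SE 0.054, adjusted p = 4.31e-05). Both siNSUN2 libraries lay below both siControl libraries for each gene, and the values were −0.30 and −0.35 with GC and length taken off. METTL2B, the enzyme for the same modification in cytosolic tRNAs, fell by 0.31 on the log2 scale (corrected −0.18), by counts that are uncertain because METTL2A is a near-identical copy. METTL2A itself stood at 41.1 and 38.9 CPM after NSUN2 siRNA against 48.1 and 47.0 CPM after control siRNA. METTL6, which acts on serine tRNAs, had 21.8 and 21.5 CPM after NSUN2 siRNA against 24.4 and 24.1 CPM after control siRNA (−0.16, SE 0.057, adjusted p = 0.0373). This small change was not called without siNSUN2 replicate 1, siNSUN2 replicate 2 or siControl replicate 2 (adjusted p = 0.0689, 0.129 and 0.0741), and it was 0.060 with the correction. FTSJ1, which adds ribose methyl groups in the anticodon loop, did not pass (0.091, SE 0.043, adjusted p = 0.105).

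Among 7 pseudouridine synthase genes, 4 fell and 2 rose. PUS7 (ENSG00000091127), which modifies the D arm of tRNAs and some mRNAs, fell the most, with 30.4 and 29.9 CPM in the siNSUN2 libraries, against 46.4 and 47.4 CPM in the siControl libraries (log2 fold change −0.64, SE 0.047, adjusted p = 3.98e-06; corrected −0.41). PUS10, PUS3 and TRUB1 fell by 0.48, 0.43 and 0.39 on the log2 scale, and their corrected values were −0.23, −0.23 and −0.095, of which the PUS3 value alone was called. TRUB1 makes the pseudouridine of the T loop, and PUS3 acts in the anticodon arm. PUSL1 (ENSG00000169972), a relative of PUS1 found in mitochondria, rose, with 26.3 and 28.0 CPM in the siNSUN2 libraries, against 17.2 and 17.5 CPM in the siControl libraries (log2 fold change 0.64, SE 0.062, adjusted p = 2.12e-05). Its groups were far apart, but the transcript has a GC content of 65.7% and the corrected value was 0.021. TRUB2, which modifies mitochondrial RNA, had 49.6 and 53.1 CPM after NSUN2 siRNA against 43.0 and 46.3 CPM after control siRNA (0.20, SE 0.055, adjusted p = 0.0141). Without siControl replicate 1 it was at 0.080 (adjusted p = 0.355), and without siNSUN2 replicate 2 at 0.16 (adjusted p = 0.0912), and it was 0.12, not called, with the correction. PUS1 did not pass (−0.034) and was called as a fall with the correction (−0.41).

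The dihydrouridine synthases, which reduce uridines mainly in the D loop, were divided. DUS1L (ENSG00000169718) rose, with 87.6 and 87.8 CPM in the siNSUN2 libraries, against 65.5 and 66.8 CPM in the siControl libraries (log2 fold change 0.41, SE 0.040, adjusted p = 2.68e-05). Its replicates agreed closely within each group, and it turned to −0.14 with the correction. DUS4L had 13.2 and 12.4 CPM after NSUN2 siRNA against 16.6 and 15.1 CPM after control siRNA (−0.30, SE 0.078, adjusted p = 0.00912) and lost its call without siNSUN2 replicate 2 (−0.25, adjusted p = 0.0719), as it did with the correction (−0.038). It shares 10.2% of its exon bases with COG5 on the opposite strand, which fell by 0.34. DUS3L narrowly missed the threshold, at 28.1 and 22.6 CPM after NSUN2 siRNA against 20.8 and 19.3 CPM after control siRNA (0.35, SE 0.12, adjusted p = 0.0563). It was called without siNSUN2 replicate 2 (0.50, adjusted p = 0.00238) and without siControl replicate 1 (0.33, adjusted p = 0.0496). It was not called without siNSUN2 replicate 1 (0.17, adjusted p = 0.131) or siControl replicate 2 (0.27, adjusted p = 0.184), and it was −0.25 with the correction. DUS2 overlapped between the groups (−0.064, SE 0.11, adjusted p = 0.691), and shares 10.9% of its exon bases with DDX28, which rose by 0.49.

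Adenosine deaminases turn adenosine into inosine. ADAT2 (ENSG00000189007), the catalytic subunit for the wobble position, had 11.7 and 9.41 CPM in the siNSUN2 libraries, against 18.8 and 16.4 CPM in the siControl libraries (log2 fold change −0.72, SE 0.13, adjusted p = 0.00373; corrected −0.51). ADAT3 (ENSG00000213638), its partner, had 4.32 and 3.18 CPM in the siNSUN2 libraries, against 1.72 and 1.89 CPM in the siControl libraries (log2 fold change 1.06, SE 0.20, adjusted p = 0.00183). One subunit was thus lower and the other higher in both siNSUN2 libraries. The ADAT3 value rests on few reads and is uncertain: its exons share 35.4% of their bases with SCAMP4 on the same strand, and SCAMP4 rose by 0.67. With a GC content of 71.8%, ADAT3 had a corrected value of 0.15 (adjusted p = 0.592). ADAT1, which acts on alanine tRNA beside the anticodon, had 60.5 and 63.7 CPM after NSUN2 siRNA against 70.0 and 66.8 CPM after control siRNA (−0.14, SE 0.047, adjusted p = 0.0332) and was not called without siNSUN2 replicate 1 (−0.10, adjusted p = 0.164) or with the correction (−0.12).

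The cytosolic wobble uridine pathway builds a carboxymethyl side group with the Elongator complex, completes it with ALKBH8 and adds sulfur with CTU1 and CTU2. Of these 8 genes 5 fell and 3 rose. ELP3, the catalytic subunit of Elongator, had 23.3 and 20.6 CPM in the siNSUN2 libraries, against 31.8 and 28.7 CPM in the siControl libraries (log2 fold change −0.46, SE 0.079, adjusted p = 0.00136). ELP2, a scaffold subunit and the most abundant of the 54 transcripts in CPM, had 104 and 101 CPM after NSUN2 siRNA against 128 and 127 CPM after control siRNA (−0.32, SE 0.040, adjusted p = 1.39e-04; corrected −0.20). Of the accessory subunits, ELP4 had 24.2 and 24.1 CPM after NSUN2 siRNA against 32.9 and 33.0 CPM after control siRNA (−0.45, SE 0.053, adjusted p = 8.25e-05; corrected −0.23), and ELP5 fell by 0.21 on the log2 scale (corrected −0.32). ELP6 went the other way, at 31.9 and 32.5 CPM after NSUN2 siRNA against 28.3 and 29.5 CPM after control siRNA (0.16, SE 0.053, adjusted p = 0.035). ELP6 lost its call when any 1 library was left out, and with the correction (0.034), and was at 0.062 without siControl replicate 1 (adjusted p = 0.566, the others between 0.0679 and 0.0964). Exons of ELP4 share 19.2% of their bases with PAX6, and those of ELP5 10.6% with CTDNEP1, on the opposite strand in both cases.

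ALKBH8 had 31.7 and 30.6 CPM after NSUN2 siRNA against 39.7 and 38.6 CPM after control siRNA (−0.33, SE 0.050, adjusted p = 4.36e-04) and was not called with the correction (−0.085). CTU1 (ENSG00000142544), which adds the sulfur with CTU2, had 9.70 and 9.61 CPM in the siNSUN2 libraries. In the siControl libraries it had 4.14 and 4.92 CPM (log2 fold change 1.08, SE 0.12, adjusted p = 5.22e-05). Both siNSUN2 libraries lay above both siControl libraries. CTU1 was the one gene of the 54 still called as a rise with GC and length taken off, close to the threshold (0.32, adjusted p = 0.0468). CTU2, its partner, had 28.3 and 26.4 CPM after NSUN2 siRNA against 24.4 and 20.9 CPM after control siRNA (0.28, SE 0.082, adjusted p = 0.0217). It was not called without siNSUN2 replicate 1 (0.23, adjusted p = 0.202), siNSUN2 replicate 2 (0.33, adjusted p = 0.0739) or siControl replicate 2 (0.15, adjusted p = 0.155), and it was −0.25 with the correction.

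In mitochondria MTO1 and GTPBP3 build the taurine side group of the wobble uridine and TRMU adds the sulfur. TRMU (ENSG00000100416) fell, with 46.6 and 42.9 CPM in the siNSUN2 libraries, against 61.0 and 60.9 CPM in the siControl libraries (log2 fold change −0.44, SE 0.050, adjusted p = 6.03e-05), and the correction made the value larger (−0.72). MTO1 had 42.6 and 44.2 CPM after NSUN2 siRNA against 60.0 and 55.2 CPM after control siRNA (−0.41, SE 0.053, adjusted p = 1.46e-04), and GTPBP3 had 27.4 and 27.5 CPM after NSUN2 siRNA against 19.98 and 21.0 CPM after control siRNA (0.42, SE 0.058, adjusted p = 2.36e-04; corrected −0.0026). The groups did not overlap for any of these 3 genes. Over the 10 genes that act mainly in mitochondria, 7 fell and 3 rose (median −0.41), and over the other 44, 26 fell and 7 rose (median −0.23). Among all genes tested, 25.5% fell and 27.1% rose. With GC and length taken off, 7 of the 10 and 22 of the 44 fell, with medians of −0.26 and −0.20, beside 23.2% of all genes. Whether the sets differ was not tested.

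**Figure D3:**
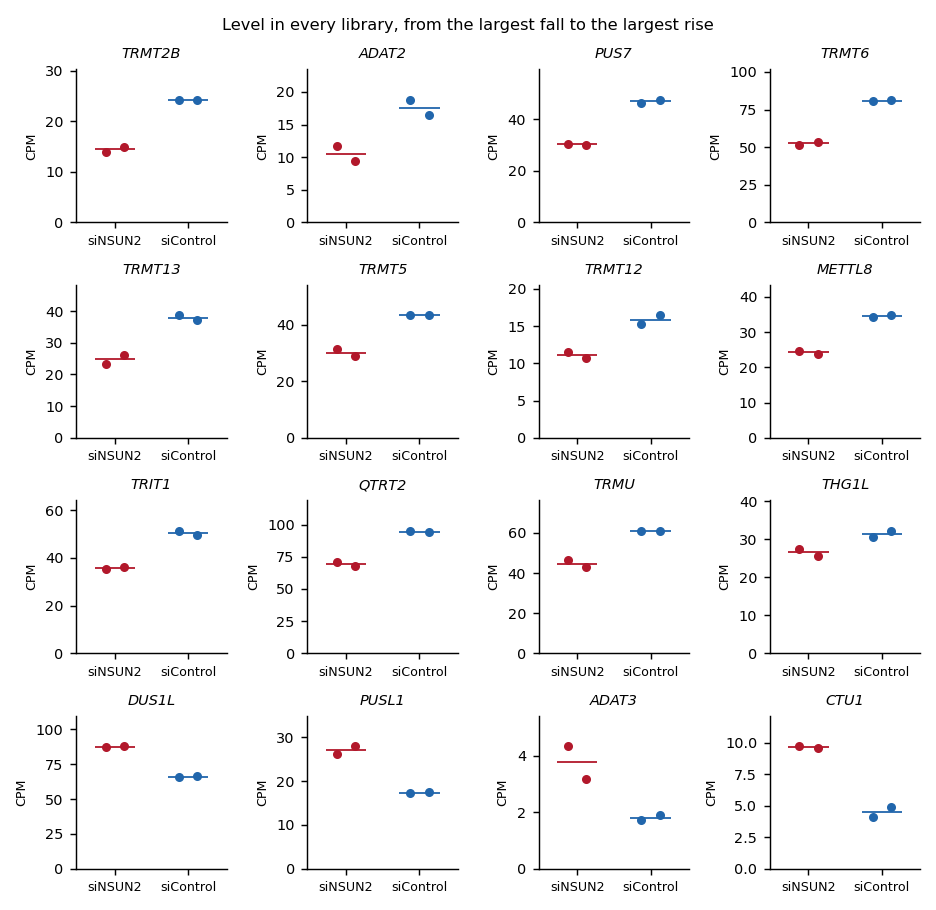
Level in CPM in each library (points; line, mean of 2) for the 16 genes that were called with a log2 fold change of 0.5 or more in size or had the smallest p among the called genes of their role, siNSUN2 left of siControl, each axis starting at 0. For each of the 16 genes, picked because they were called, both siNSUN2 libraries lie on the same side of both siControl libraries. This is also so for 12592 of the 16889 genes tested.

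Queuosine replaces guanosine at the wobble position of a few tRNAs and is put there by QTRT1 with QTRT2. QTRT2 (ENSG00000151576) had 70.9 and 68.1 CPM in the siNSUN2 libraries, against 95.2 and 94.0 CPM in the siControl libraries (log2 fold change −0.44, SE 0.042, adjusted p = 2.03e-05), whereas the catalytic QTRT1 did not pass (0.15, SE 0.061, adjusted p = 0.0726). With the correction both were called as falls, at −0.28 and −0.29.

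Of 7 genes for the purine beside the anticodon, 6 fell and 0 rose. TRIT1 (ENSG00000043514), which adds an isopentenyl group to that adenosine, had 35.4 and 36.1 CPM in the siNSUN2 libraries, against 51.3 and 49.7 CPM in the siControl libraries (log2 fold change −0.50, SE 0.046, adjusted p = 1.75e-05; corrected −0.33). CDK5RAP1, which adds a methylthio group on the same base in mitochondria, had 60.3 and 56.9 CPM after NSUN2 siRNA against 72.0 and 70.9 CPM after control siRNA (−0.28, SE 0.045, adjusted p = 5.61e-04; corrected −0.32). CDKAL1, the related enzyme of cytosolic lysine tRNA, did not pass (−0.080, SE 0.052, adjusted p = 0.238). The other 4 genes make wybutosine, the tricyclic base of phenylalanine tRNA. TRMT12 (ENSG00000183665) had 11.5 and 10.7 CPM in the siNSUN2 libraries, against 15.2 and 16.4 CPM in the siControl libraries (log2 fold change −0.51, SE 0.078, adjusted p = 4.19e-04; corrected −0.40). TYW3, TYW5 and TYW1 fell by 0.42, 0.31 and 0.19 on the log2 scale and stood at −0.15, −0.068 and −0.065, not called, with the correction. TYW1 was also not called without siNSUN2 replicate 2 (−0.12, adjusted p = 0.133). THG1L (ENSG00000113272), which adds a guanosine to the start of histidine tRNA, had 27.3 and 25.7 CPM in the siNSUN2 libraries, against 30.6 and 32.2 CPM in the siControl libraries (log2 fold change −0.24, SE 0.059, adjusted p = 0.00678), and missed the threshold without siNSUN2 replicate 2 (−0.19, adjusted p = 0.0567) and with the correction (−0.13).

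Partner subunits did not always move together. The ratio of TRMT6 to TRMT61A, both per kb of exon, was 0.31 and 0.32 on the log2 scale in the siNSUN2 libraries, against 1.16 and 1.23 in the siControl libraries. For ADAT2 over ADAT3 it was −0.24 and −0.12 in the siNSUN2 libraries, against 1.77 and 1.44 in the siControl libraries. MTO1 over GTPBP3 was at −0.77 and −0.73 in siNSUN2 libraries and at 0.17 and −0.017 in siControl libraries. TRMT61A, ADAT3 and GTPBP3, which have a higher GC content than their partners, gained on them. With GC and length taken off, TRMT6 and TRMT61A both lay below 0, at −0.43 and −0.36. QTRT1 over QTRT2 was higher with NSUN2 siRNA, at −0.092 and 0.058, than with control siRNA, at −0.58 and −0.64. So was CTU1 over CTU2, at −0.78 and −0.70 with NSUN2 siRNA and −1.80 and −1.33 with control siRNA. TRMT11 over TRMT112 was lower, at −2.68 and −2.64 with NSUN2 siRNA and −2.24 and −2.30 with control siRNA. ALKBH8 over TRMT112 was lower too, at −2.79 and −2.80 with NSUN2 siRNA and −2.47 and −2.50 with control siRNA. Here too QTRT1, CTU1 and TRMT112 have a higher GC content than their partners. With the correction TRMT112, TRMT11 and ALKBH8 lay close together, at −0.092, −0.13 and −0.085, as did QTRT1 and QTRT2, at −0.29 and −0.28. The corrected values were −0.51 and 0.15 for ADAT2 and ADAT3, −0.29 and −0.0026 for MTO1 and GTPBP3, and 0.32 and −0.25 for CTU1 and CTU2. The METTL1 to WDR4 ratio overlapped between the groups. The ratios themselves were not tested.

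**Figure D4:**
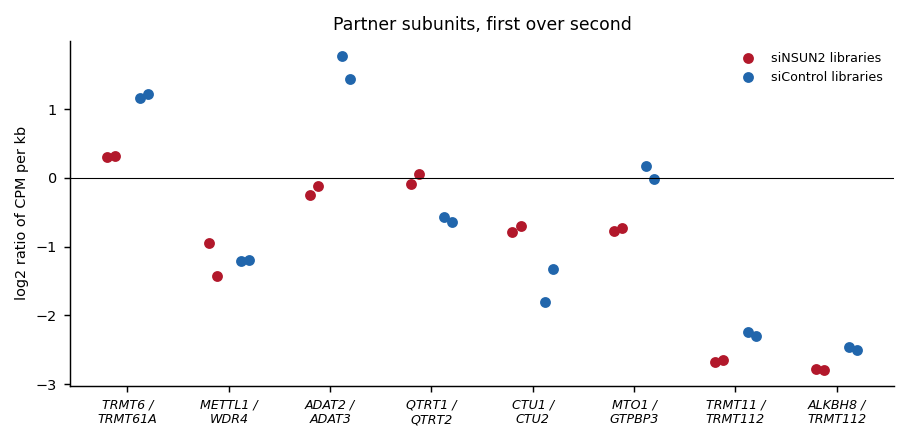
Log2 ratio of CPM per kb of exon, first gene over second, in each siNSUN2 library (red, left) and siControl library (blue, right) for 8 pairs of partner subunits. The red and blue points are apart in every pair except METTL1 with WDR4.

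Per kb of exon, TRMT112 was the most abundant of the 54 transcripts, with 47.8 CPM per kb in siNSUN2 cells and 48.7 in siControl cells. TRMT10C had 19.8 CPM per kb in siNSUN2 cells and 27.1 in siControl cells. TRMT6 had 13.9 CPM per kb in siNSUN2 cells and 21.4 in siControl cells, so that it stood above FTSJ1 in controls and below it after the knockdown (FTSJ1 had 21.3 CPM per kb in siNSUN2 cells and 20.01 in siControl cells). At the low end were ADAT3 with 1.68 CPM per kb in siNSUN2 cells and 0.806 in siControl cells, ELP4 with 0.885 CPM per kb in siNSUN2 cells and 1.21 in siControl cells and PUS10 with 1.06 CPM per kb in siNSUN2 cells and 1.48 in siControl cells. Exon lengths come from a GRCh38 annotation and count every annotated exon, which lowers the per-kb level of genes with long alternative exons such as ELP4.

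The word ACCCTA and its longer forms in the 3′ untranslated region (3′ UTR) went with falls in an earlier analysis of these same data. Their sites in 7 of the 54 genes are printed to show which enzymes carry the word and in what context. The word is in capitals, and the sequences are 5′ to 3′ from GENCODE release 29 (GRCh38):
METTL6: tagtacctcAACCCTAAttttgcctg
ELP4, first site: gaacttcaaAACCCTAtatggtact
ELP4, second site: agcagtactAACCCTAAgtacttaca
METTL8, first site: catgggaaaAACCCTAtctctacca
METTL8, second site: agcacagtgACCCTAattctggca
TRMT2B: attggagagACCCTAagggaaagg
ADAT2: tctcccactACCCTAtaatcccag
TRMT61A: aagtgggtgACCCTAatgccagga
TRUB2, first site: cagagcgagACCCTAtgtcagaaa
TRUB2, second site: cagggtgagACCCTAtctcaaaac

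On GRCh38 the capitals lie at chr3:15384062-15384069 (METTL6, minus strand), chr11:31785962-31785968 and chr11:31786373-31786380 (ELP4, plus), chr2:171321440-171321446 and chr2:171317849-171317854 (METTL8, minus), chrX:101009461-101009466 (TRMT2B, minus), chr6:143425580-143425585 (ADAT2, minus), chr14:103536550-103536555 (TRMT61A, plus), and chr9:128305719-128305724 and chr9:128305402-128305407 (TRUB2, minus). For each coding gene the transcript strand of its longest annotated 3′ UTR was searched. Of 53 searched genes of the 54, 7 (13.2%) held ACCCTA, beside 21.4% of 12443 searched genes over the transcriptome. Of these 7, 5 fell and 2, TRMT61A and TRUB2, rose (median −0.45). Of the 46 without the word, 28 (60.9%) fell and 8 rose (median −0.29). Over all searched genes with the word, 44.7% fell and 22.9% rose, and without it 27.0% fell and 36.6% rose. The 3 genes with the longer form AACCCTA, which AACCCTAA contains, were METTL6, METTL8 and ELP4. All 3 fell, beside 54.5% falls and 16.0% rises among the 969 genes with that form over the transcriptome. The word was known from these same data, so falls among its carriers are not a separate test of it. The 3 genes also have a low GC content (36.5% to 42.0%), in the lowest range, where 22 of 23 tRNA modification genes fell. With GC and length taken off, ELP4 was at −0.23, METTL8 at −0.35 and METTL6 at 0.060. Whether the word matters apart from GC content was not tested. The word need not be present in the isoform that T24 cells use. It was in 1 of 17 annotated coding 3′ UTRs of ELP4, in 2 of 6 of METTL6, in 2 of 4 of TRMT2B and in 1 of 2 of ADAT2.

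Other tRNA genes, here genes of tRNA metabolism and other partners of TRMT112, also fell more often than they rose. Of 59 tested in 5 lists, 29 (49.2%) fell and 10 (16.9%) rose (median −0.25), beside 25.5% and 27.1% of all genes tested. With GC and length taken off, 27 fell and 9 rose, beside 23.2% falls and 24.1% rises among all genes. Among 21 genes of tRNA processing and export, 12 fell and 1 rose, and with GC and length taken off 15 fell and 2 rose. TRNT1, which adds the CCA end, fell by 0.87 on the log2 scale, SSB, the La protein that binds new tRNA transcripts, by 0.75, and RPP38 and RPP40, protein subunits of RNase P, by 0.93 and 0.73. Of 22 further modification genes, 11 fell and 4 rose (median −0.25), and with GC and length taken off 7 fell and 2 rose (median −0.035). RPUSD3, a pseudouridine synthase of mitochondrial RNA, fell the most. Its level was 14.6 and 12.6 CPM after NSUN2 siRNA against 31.8 and 29.4 CPM after control siRNA (−1.16, SE 0.083, adjusted p = 5.75e-06, corrected −1.53).

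The genes for threonylcarbamoyladenosine, the modified base beside the anticodon of tRNAs that read codons starting with A, moved both ways. Of 7, 2 fell (TPRKB and OSGEPL1, at −0.58 and −0.81) and 3 rose (LAGE3, YRDC and OSGEP, at 0.85, 0.24 and 0.23), and the counts were the same with the correction. Of 6 genes that serve Elongator or the sulfur relay to CTU1, 2 fell and 2 rose, with and without the correction. LYRM4, the assembly partner of the cysteine desulfurase NFS1, fell by 0.84, and NFS1 by 0.29. Of the 3 other partners of TRMT112, METTL5 and N6AMT1 fell, by 0.57 and 0.22, and BUD23 did not pass (−0.25). With the correction 1 of these 3 fell. Apart from RPUSD3, the genes named from these 5 lists were chosen after their values were seen.

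**Figure D5:**
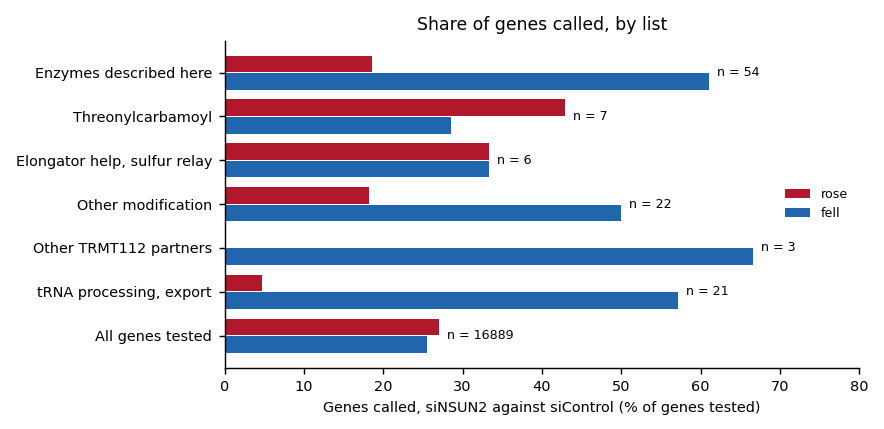
Share of tested genes called as risen (red) or fallen (blue) after NSUN2 siRNA against control siRNA, for the 54 genes, 5 other lists (tRNA metabolism and other partners of TRMT112) and all genes tested, with the number tested beside each pair of bars. Falls make up 61.1% of the 54 genes and 25.5% of all genes.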

How the data were processed

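Poly(A) RNA libraries were made with a stranded kit and read as paired ends, per the labels' protocols. The authors deposited raw counts per gene on hg19; HISAT2 and HTSeq are named in the submitters' processing notes, without versions. Neither the annotation nor whether counting used strand is given in the sources used here. From the deposited counts, genes with low counts were removed with filterByExpr (16889 of 62893 kept, 99.96% of counts) and TMM factors ranged from 0.985 to 1.018. siNSUN2 was tested against siControl with edgeR 4.0.16 in R 4.3.3 (quasi-likelihood F-test, robust, two-sided, Benjamini-Hochberg over all genes, threshold 0.05; biological coefficient of variation 0.14). SE is the log2 fold change divided by the root of F. The depth, 33633249 to 215936965 counts, differed 6.42 times between libraries, and each gene's error is that of the fit.

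GENCODE release 29 (GRCh38) gave symbols, exon length, GC content and 3′ UTRs only, and 96.4% of tested genes had a GC value. The GC and length alternative took loess trends (span 0.3) off each library. Replicate libraries were not duplicates (chi-square over degrees of freedom of 13.4 between the siNSUN2 and 21.6 between the siControl libraries), and all were kept. DESeq2 1.42.0 and limma 3.58.1 served as alternatives. The genes and lists were chosen with earlier results of these data known. In full are given genes called with a log2 fold change of at least 0.5 in size, and the called gene with the smallest p of each role. From the other lists, called genes with a change of at least 1 in size were to be named. Some genes of these lists and markers are not reported here, and counts leave them out.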

Additional observations from a re-analysis of the deposited data

How the results depend on the processing

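The count of 43 called tRNA modification genes was 26 when tested against a fold of 1.2 (5442 for all genes, against 8880), and lay between 30 and 46 in the other settings tried. Leaving out 1 library gave 37 to 42 of the 54, 7723 to 8415 of all genes and 36 to 38 of the 59 other tRNA genes. The median of −0.29 became −0.26 with limma-voom and −0.21 with GC content and length trends taken off, and lay between −0.33 (without siControl replicate 1) and −0.22 (without siNSUN2 replicate 2) with 1 library left out. With GC and length taken off, 13 of the 54 genes changed sign, 5 of them called in neither fit (DUS3L, FTSJ1, METTL1, TRMT44 and CDKAL1). The other 8 were DUS1L to −0.14, METTL6 to 0.060, TRMT2A to −0.23, TRMT61A to −0.36, WDR4 to −0.19, QTRT1 to −0.29, CTU2 to −0.25 and GTPBP3 to −0.0026. The cause was not tested. Of 43 called genes, 23 had the same call in all 13 settings tried on single genes, and 7 of the 11 others were called in at least 1.

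The labels do not say whether the replicate numbers pair libraries across the groups. Differences between the replicate libraries within each group correlated across the groups at 0.088 over 9661 genes. This weak correlation alone cannot decide whether the numbers pair libraries. With the number as a replicate block, 46 of the 54 were called, and 9815 of all genes. Gene by gene, log2 fold changes over all genes differed from the main fit by a median of −0.067 without siControl replicate 1. With GC and length taken off this median difference was 0.072, and in the other settings it was 0.024 or less in size. ADAT3, at 73 to 402 counts a library, had the fewest reads, and depth limits its precision most.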
